A study of Danio rerio with 7 samples.

Results

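At 48 h after amputation, the posterior and the anterior edge of the cut zebrafish tail fin differed in 4483 of 19970 RNA clusters tested by 1 or more on the log2 scale, which is a factor of 2. The comparison set the library of the posterior cut edge (PCE 48 h) against the library of the anterior cut edge (ACE 48 h), with the control library as a common point from which both edges were measured. A cluster was tested when it was above 0 in all 3 libraries and had a mean of at least 5 FPKM over them, and a difference was taken on log2(FPKM + 1), a scale that understates the difference of low clusters. FPKM, fragments per kilobase scaled to the size of the library, is a level per length of the feature. The whole table held 433380 clusters. The members were chosen by these same values, so what follows on the 3 libraries is a description without a test.

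The tail fins were sampled at the anterior or the posterior cut edge at 24, 48 and 72 h post amputation, with 1 library for each edge and time and 1 library labelled as control, for which no edge and no time is given. No genotype, strain, age, drug or number of pooled fish is given in the labels, and the rows of the table are numbered clusters with no gene names, so that neither genes nor the cell types of the tissue could be checked. Because each edge and time had 1 library, no difference has a replicate check and no p-value is given. In bulk RNA of this kind, fewer cells of a type and less RNA per cell cannot be told apart.

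An amputated zebrafish fin regrows from a blastema, a mass of proliferating cells that forms at the cut under a wound epidermis. The blastema carries positional information along the proximodistal axis, so that regrowth normally replaces what lay beyond the cut. Calcineurin, the phosphatase named in the title of the study, responds to calcium, and its inhibition is known to cause overgrowth of zebrafish fins. Comparing the posterior with the anterior cut edge asks which RNAs differ with the side of the cut and which are shared by both wounded edges.

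The libraries were unequal in ways that bear on the comparison. Total FPKM was 2558325 in PCE 48 h, 1924131 in ACE 48 h and 1804586 in the control. Clusters above 0 numbered 115844 in PCE 48 h, 143247 in ACE 48 h and 170017 in the control. Reads per library are not stated. The ratios of low values between libraries put the depth of PCE 48 h at 1.08 times that of ACE 48 h and level with that of the control. These ratios used only clusters with a low value in both libraries, so they do not measure how many clusters each library detected. Low values rise in steps, and in 5 of 21 pairs of libraries the steps at 1.2 to 2.5 FPKM matched with a peak height over 10. These pairs joined PCE 48 h, ACE 48 h and ACE 72 h, and separately the control with ACE 24 h and with PCE 72 h. For PCE 48 h and ACE 48 h the peak height was 11.2, against 4.20 for PCE 48 h with the control and 5.20 for ACE 48 h with the control. By this bound, the edge difference at 48 h lies within such a set of libraries, while departures from the control and the edge differences at 24 and 72 h do not. PCE 24 h was in no pair over the bound. The height can rise with the number of clusters compared, which was 1138, 480 and 1120 for the pairs just given, so the sets are not firm. The labels name no batch, and the part of these sets in the results was not tested. PCE 24 h stood apart, with 29.3% of its total FPKM in clusters seen in no other library, against 1.96% to 7.45% in the others.

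The posterior edge was higher in 1653 clusters (8.28% of those tested) and lower in 2830 (14.2%), together 22.4%. Most of these differences were moderate. At a size of at least 2, a factor of 4, there remained 334 PCE-higher and 677 ACE-higher clusters, at 3 there were 68 and 138, at 4 there were 12 and 26, and at 5 there were 0 and 5. The difference had a median of 1.42 in the PCE-higher clusters and of -1.48 in the ACE-higher clusters, against -0.14 over all clusters tested. The balance between the directions depended on scaling. PCE-higher clusters made up 36.9% of members on the deposited values, but 48.8% after median-of-ratios scaling, 50.5% after quantile normalization and 15.2% when every library was scaled to an equal total. These settings moved the median of all clusters by 0.16, 0.14 and -0.33 on the log2 scale. The excess of ACE-higher clusters is therefore given only for the deposited scale.

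At the threshold, the PCE-higher cluster just inside it had 12.6 FPKM in PCE 48 h, 5.82 FPKM in ACE 48 h and 48.8 FPKM in the control, and the nearest cluster just outside it at 13.1, 6.07 and 1.40 FPKM. On the other side, the nearest ACE-higher cluster inside it stood at 4.24, 9.48 and 3.45 FPKM in PCE 48 h, ACE 48 h and the control, and the nearest one outside it at 46.6, 94.2 and 175.3 FPKM.

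On the deposited values and above the minimum mean of 5 FPKM, the balance between the directions shifted with the level of a cluster. Among clusters with a mean of 5 to under 10 FPKM, 8.87% were PCE-higher and 17.2% ACE-higher. The PCE-higher share stayed between 7.58% and 8.87% over all 5 ranges of level. The ACE-higher share was lower in each next range, with 13.9%, 11.7%, 9.36% and, at 200 FPKM or more, 6.42%. In that highest range 45 clusters were PCE-higher and 36 were ACE-higher, so that 55.6% of its members were higher at the posterior edge. In the lowest range this share was 34.0%. With no minimum mean, 41.8% of members were PCE-higher, against 36.9% with it, so the trend did not continue below 5 FPKM. The ranges were not redone under another scaling, on which the balance depended.

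**Figure D1:**
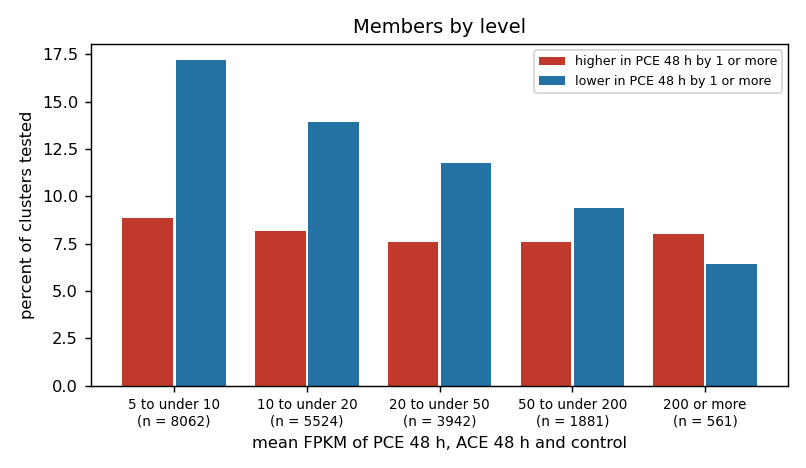
Share of the clusters tested that were higher (red) or lower (blue) in PCE 48 h than in ACE 48 h by at least 1 on log2(FPKM + 1), in percent, by mean FPKM of PCE 48 h, ACE 48 h and the control. On the deposited values, the red bars stay near 8% in every range, while the blue bars decline to 6.42% in the highest range.

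Over all members, the directions also differed in the amount of signal they held. The PCE-higher clusters held 16.1% of the total FPKM of PCE 48 h, 4.77% of that of ACE 48 h and 4.47% of that of the control. Much of this was a single cluster. Cluster-118330.128325, the PCE-higher cluster with the highest level, had 259639.8 FPKM in PCE 48 h, which was 10.1% of that library, 44129.6 FPKM in ACE 48 h and 11560.9 FPKM in the control. Without it the PCE-higher clusters held 5.91% of the total of PCE 48 h, against 2.48% of that of ACE 48 h. The selection itself favours this gap. The ACE-higher clusters held 1.41% of the total of PCE 48 h, 6.95% of that of ACE 48 h and 4.54% of that of the control. Without Cluster-118330.128325, the PCE-higher share of PCE 48 h (5.91%) was thus below the ACE-higher share of ACE 48 h (6.95%). The latter still included its own highest cluster, at 1.76% of ACE 48 h.

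The position of each edge relative to the control was then examined for every member. Across all clusters tested, both edges departed from the control more often than from each other, by at least 1 in 55.8% for PCE 48 h and in 51.8% for ACE 48 h. Both departures share the 1 control library. Of the members, 1456 (32.5%) had both edges above the control, 1601 (35.7%) had both below it, and 1426 (31.8%) had the edges on opposite sides. Thus in 68.2% of members the edges moved from the control in the same direction and differed in how far. Among the 15487 clusters whose edges differed by less than 1, opposite sides were seen in 10.53%, but a larger difference between the edges by itself makes opposite sides more likely.

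The directions were unlike in this respect. PCE-higher clusters had both edges above the control in 799 cases (48.3%), on opposite sides in 455 (27.5%) and both below in 399 (24.1%). ACE-higher clusters had both edges below the control in 1202 cases (42.5%), on opposite sides in 971 (34.3%) and both above in 657 (23.2%). Over all clusters tested, both edges were above the control in 51.1%, on opposite sides in 15.3% and both below in 33.5%. On the deposited values, the share of PCE-higher clusters with both edges above the control was thus near that of all clusters tested. The share of ACE-higher clusters was lower. After quantile normalization the 2251 PCE-higher clusters were more evenly split, with 789 both above, 748 on opposite sides and 713 both below. The 2207 ACE-higher clusters then had 1058 both below, 703 on opposite sides and 445 both above. For PCE-higher clusters, median-of-ratios scaling gave 963 both above, 614 on opposite sides and 540 both below. Scaling to an equal total gave 306, 222 and 202. Both above was thus the largest PCE-higher class in each of these settings, but how even the split was depended on scaling.

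**Figure D2:**
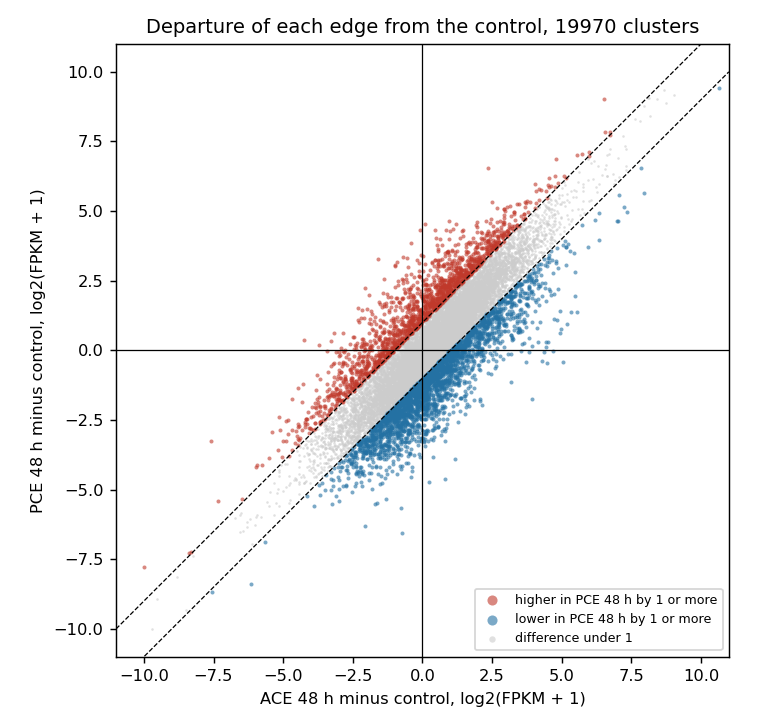
Departure of PCE 48 h (vertical) and of ACE 48 h (horizontal) from the control on log2(FPKM + 1), 1 point per cluster, for 19970 clusters. Points outside the dashed lines are the 1653 PCE-higher (red) and 2830 ACE-higher (blue) clusters. The cloud runs along the diagonal, and the upper left and lower right fields hold the clusters whose edges lay on opposite sides of the control.

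The posterior edge lay farther from the control in 2836 members (63.3%) and the anterior edge in 1647 (36.7%). Over all clusters tested PCE 48 h was the farther edge in 54.8%, and over clusters whose edges differed by less than 1 in 52.4%. The share was nearly the same in each direction, 63.4% of PCE-higher and 63.2% of ACE-higher clusters. When the edges lie on 1 side of the control, the direction of the difference fixes which edge is farther. Among members on opposite sides, where it does not, PCE 48 h was farther in 249 of 455 PCE-higher clusters (54.7%) and in 586 of 971 ACE-higher clusters (60.3%), against 53.1% of all clusters tested on opposite sides and 48.3% of those that were no members. The PCE-higher share was near that of all clusters tested. After quantile normalization the share with PCE 48 h farther was 52.6% of PCE-higher and 67.4% of ACE-higher clusters.

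Counting only departures of at least 1, PCE 48 h alone departed from the control in 490 PCE-higher clusters (29.6%) and 1068 ACE-higher clusters (37.7%), against 13.96% of all clusters tested. ACE 48 h alone departed in 322 (19.5%) and 551 (19.5%), against 9.98%. Both edges departed by at least 1 in the same direction in 654 (39.6%) and 838 (29.6%), against 41.4%, and neither did in 147 (8.89%) and 318 (11.2%), against 34.2%. The PCE-higher share with both edges departing the same way was near that of all clusters tested. Members differ between the edges by at least 1, which by itself makes a departure of 1 edge alone more likely. Both departures can then stay under 1 only if the edges lie on opposite sides of the control. The contrasts of these classes with all clusters tested therefore follow in part from the selection. Both edges departed by at least 1 in opposite directions in 40 PCE-higher and 55 ACE-higher clusters, together 2.12% of members. Such clusters are members by the rule itself, so these 95 were also all of those among the clusters tested, 0.476%.

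**Figure D3:**
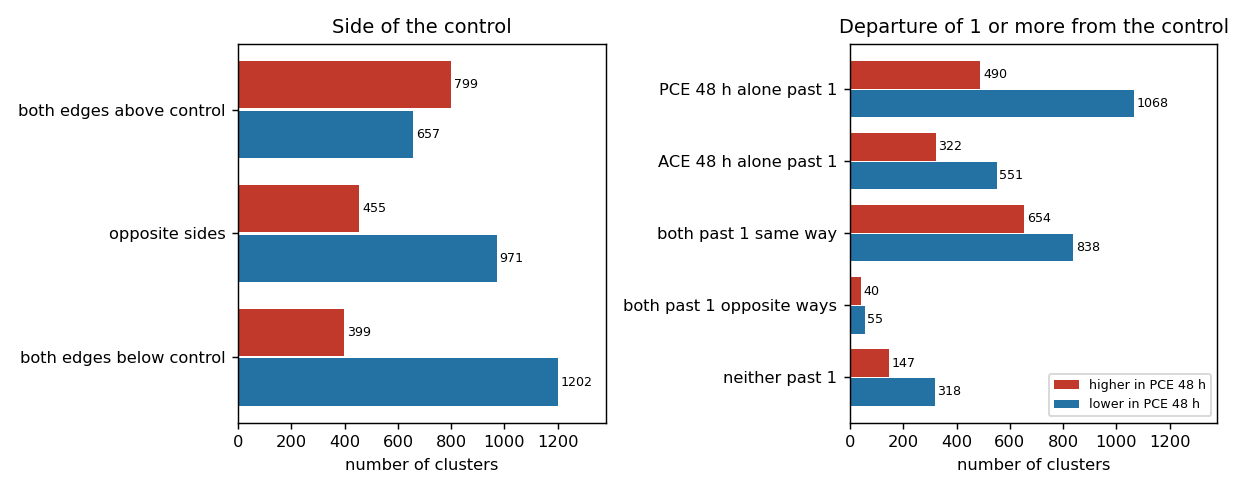
Number of PCE-higher (red) and ACE-higher (blue) clusters at 48 h by the side of the control on which the edges lay (left) and by which edge departed from the control by at least 1 on log2(FPKM + 1) (right). On the deposited values, both edges below the control was the most frequent form among ACE-higher clusters (1202), and both above it among PCE-higher clusters (799).

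The clusters with the greatest differences show these forms. Cluster-118330.130599 had the highest PCE minus ACE difference at 48 h, 4.89 on the log2 scale, with 188.4 FPKM in PCE 48 h, 5.38 FPKM in ACE 48 h and 18.4 FPKM in the control. The departure from the control was 3.29 at the posterior edge and -1.60 at the anterior edge, so the edges moved apart with PCE 48 h farther. Cluster-118330.128948 had a difference of 4.61, with 97.3 FPKM in PCE 48 h, 3.02 FPKM in ACE 48 h and 75.2 FPKM in the control. Here PCE 48 h lay within 0.37 of the control, and the difference came almost wholly from the low value at the anterior edge.

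Cluster-118330.147275 had the most negative difference, -5.82, with 0.78 FPKM in PCE 48 h, 99.8 FPKM in ACE 48 h and 167.8 FPKM in the control. Both edges were below the control, the posterior edge by far the more. At 24 and 72 h it was again present at the posterior edge, with 38.3 and 44.9 FPKM, against 81.5 and 77.5 FPKM at the anterior edge, so PCE 48 h was low even for its own edge. Cluster-118330.132932 had a difference of -5.67, with 0.03 FPKM in PCE 48 h, 51.5 FPKM in ACE 48 h and 2.43 FPKM in the control. The anterior edge lay 3.94 above the control, while the posterior edge was close to 0.

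Among clusters with both edges at least 1 from the control on opposite sides, those with the largest smaller departure were the following. Cluster-118330.114562 had 55.1 FPKM in PCE 48 h, 1.87 FPKM in ACE 48 h and 10.99 FPKM in the control, a departure of 2.23 at the posterior edge and of -2.06 at the anterior edge. Cluster-118330.81451 stood at 50.7, 2.43 and 11.9 FPKM in the same libraries, with departures of 1.997 and -1.92. Both clusters were thus about as far from the control at the anterior edge as at the posterior edge.

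In the other direction, Cluster-118330.244373 had 0.60 FPKM in PCE 48 h, 26.6 FPKM in ACE 48 h and 5.26 FPKM in the control, and Cluster-118330.137689 at 3.44, 64.4 and 14.8 FPKM. Their departures were -1.97 and -1.83 at the posterior edge, against 2.14 and 2.05 at the anterior edge. The ACE-higher cluster with the highest level, Cluster-118330.113308, was of another form, with 6883 FPKM in PCE 48 h, 33957 FPKM in ACE 48 h and 136.5 FPKM in the control. Both edges were far above the control, by 5.65 and 7.95, and the anterior edge was the farther.

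The libraries of 24 and 72 h took no part in choosing the members and show what became of the edge differences at other times. At 72 h the posterior edge was higher by at least 1 in 467 of the 1653 PCE-higher clusters (28.3%), against 9.75% of all clusters tested. It was lower in 592 of them (35.8%), against 44.0% of all clusters tested. Of the 2830 ACE-higher clusters, 1755 (62.0%) were lower at the posterior edge at 72 h, against the same 44.0%, and 152 (5.37%) were higher. The medians of the 72 h difference were -0.16 for PCE-higher clusters, -1.41 for ACE-higher clusters and -0.80 for all clusters tested. Relative to all clusters tested, the members of each direction therefore lay on their own side at 72 h, by 0.65 and by -0.61.

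Median-of-ratios scaling raised the 72 h median of all clusters tested by 0.61, to -0.19. With it, 638 PCE-higher clusters (38.6%) were higher at the posterior edge at 72 h, against 19.0% of all clusters tested, and 1288 ACE-higher clusters (45.5%) were lower, against 27.5%. The median of the PCE-higher clusters was then 0.33 in place of -0.16, so its sign depends on scaling. Among the 875 PCE-higher clusters above 0 in all 7 libraries, 38.6% were higher at 72 h on the deposited values, against 10.03% of the tested clusters with no 0.

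The difference at 72 h went with the side of the control on which the edges had been at 48 h. PCE-higher clusters with both edges above the control at 48 h were higher at the posterior edge at 72 h in 43.1% of cases and lower in 21.9%. Those on opposite sides were higher in 17.6% and lower in 48.4%, and those with both edges below the control were higher in 10.8% and lower in 49.4%. These last shares were close to the 9.75% and 44.0% of all clusters tested. The median difference at 72 h was 0.68, -0.89 and -0.98 in these classes, and their medians at 48 h were 1.36, 1.64 and 1.36. Their median levels in PCE 48 h were unequal, at 27.2, 16.35 and 9.27 FPKM. At 24 h the order was not the same, with 22.0%, 17.1% and 26.3% higher at the posterior edge, in the same sequence of classes.

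These classes also differed in how often they were seen at all. PCE 72 h was listed at 0 in 14.8% of the PCE-higher clusters with both edges above the control, 36.0% of those on opposite sides and 30.6% of those with both below, against 11.5% of all clusters tested. Among clusters above 0 in all 7 libraries, 54.0% of the first class were higher at 72 h, 27.4% of the second and 16.0% of the third. The share for all tested clusters with no 0 was 10.03%. Lower at 72 h were 10.8%, 26.9% and 28.2% of these classes, against 38.2% of the tested clusters with no 0. With median-of-ratios scaling the shares that were higher, over all clusters of each class, were 55.6%, 24.6% and 20.6%, against 19.0% of all clusters tested. The shares that were lower were then 16.4%, 40.9% and 38.1%, against 27.5%. With 1 library a side, the difference between classes was not tested. PCE 72 h shared its low value steps with the control and ACE 72 h with the 48 h libraries, and the part of this in the result was not tested.

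Among ACE-higher clusters, PCE minus ACE at 72 h ranked the classes in the same order. The medians were -1.06 with both edges above the control, -1.48 on opposite sides and -1.56 with both below. The direction of 48 h was thus kept most often with both edges below the control, not above it. The 72 h shares of all clusters tested were not split by side. ACE-higher clusters with both edges below the control at 48 h were lower at the posterior edge at 72 h in 67.0% of cases. The share was 63.0% for those on opposite sides and 51.4% for those with both edges above the control, against 44.0% of all clusters tested. Higher values at the posterior edge were seen in 2.75%, 4.84% and 10.96%, against 9.75% of all clusters tested. The class with both edges above the control thus lay closest to all clusters tested. With median-of-ratios scaling the shares that were lower were 49.4%, 47.2% and 35.9%, against 27.5% of all clusters tested. In median levels, the ACE-higher clusters with both edges below the control were at 2.48 and 3.26 FPKM in the PCE libraries of 48 and 72 h, against 9.32 and 11.04 FPKM in ACE, and 19.5 FPKM in the control.

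At 24 h the shares lay closer to those of all clusters tested. The posterior edge was higher by at least 1 in 359 PCE-higher clusters (21.7%), against 11.7% of all clusters tested, and lower in 571 (34.5%), against 31.8%. It was lower in 1039 ACE-higher clusters (36.7%) and higher in 399 (14.1%). The medians of the 24 h difference were -0.06 for PCE-higher, -0.49 for ACE-higher and -0.41 for all clusters tested, so that the ACE-higher clusters lay only 0.07 below the whole. PCE 24 h was listed at 0 in 35.6% of PCE-higher and 22.6% of ACE-higher clusters, against 15.5% of all clusters tested. Of the 875 PCE-higher clusters above 0 in all 7 libraries, 28.8% were higher at 24 h and 19.5% lower. The shares for the tested clusters with no 0 were 11.5% and 24.2%. The median of these PCE-higher clusters was 0.25 in place of -0.06, so its sign depends on how 0 is treated. Because PCE 24 h stood apart, the values at 24 h are given only beside those at 72 h.

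**Figure D4:**
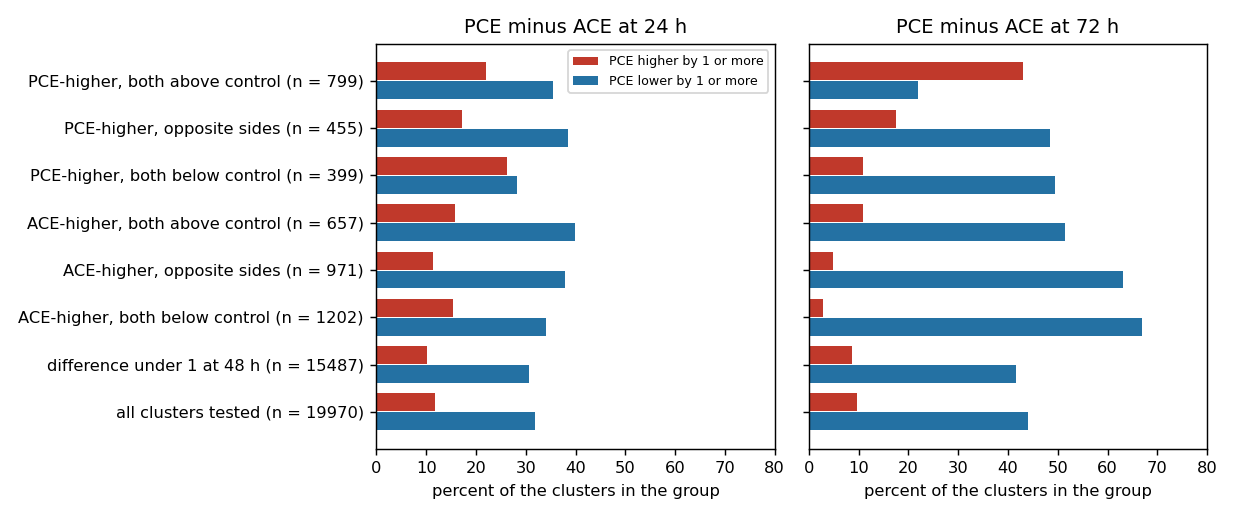
Share of clusters, in percent, in which PCE was higher (red) or lower (blue) than ACE by at least 1 on log2(FPKM + 1) at 24 h (left) and at 72 h (right), for PCE-higher and ACE-higher clusters of 48 h by side of the control, and for all clusters tested. At 72 h the red bar exceeds the blue bar only for PCE-higher clusters with both edges above the control (43.1% against 21.9%).

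The direction of 48 h was kept by at least 1 at both 24 and 72 h in 152 PCE-higher clusters (9.20%), against 2.58% of all clusters tested that were PCE-higher at 24 and 72 h. More of the PCE-higher clusters, 250 (15.1%), were lower at the posterior edge by at least 1 at both of these times, against 17.1% of all clusters tested. The direction was kept in 667 ACE-higher clusters (23.6%), against the same 17.1%, and 34 (1.201%) were higher at both times, against 2.58%. Cluster-118330.130599 was the strongest example in the first direction, at 1463, 188.4 and 156.8 FPKM in the PCE libraries of 24, 48 and 72 h, against 7.03, 5.38 and 2.97 FPKM in the ACE libraries. Its level in PCE was highest at 24 h. Cluster-118330.101784 varied less, with 59.3, 83.3 and 67.8 FPKM in PCE, against 5.53, 7.15 and 2.92 FPKM in ACE, and 4.25 FPKM in the control. In both clusters every PCE library was above every ACE library and above the control.

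In the other direction, Cluster-118330.132932 and Cluster-118330.132930 were at 0.02 to 0.03 FPKM in every PCE library. Cluster-118330.132932 had 13.6, 51.5 and 28.2 FPKM in the ACE libraries of 24, 48 and 72 h, and Cluster-118330.132930 had 93.4, 14.96 and 37.4 FPKM, with 19.6 FPKM in the control. All these clusters were chosen for a large difference of the same sign at 3 times, which adds no support.

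Other members changed sides. Cluster-118330.88857 was PCE-higher at 48 h, with 14.0 FPKM in PCE 48 h and 0.83 FPKM in ACE 48 h, but at 72 h it had 1.34 FPKM at the posterior and 17.6 FPKM at the anterior edge. Cluster-118330.117246 had 32.2 FPKM in PCE 48 h and 4.25 FPKM in ACE 48 h, and then 1.80 FPKM in PCE 72 h and 15.1 FPKM in ACE 72 h. In both, the posterior edge was above the anterior edge at 48 h, and the reverse held at 72 h. Cluster-118330.117246 was below its control level of 66.4 FPKM in all of these libraries, while Cluster-118330.88857 had 5.79 FPKM in the control.

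The same was seen from the other side. Cluster-118330.202757 had 2.64 FPKM in PCE 48 h and 43.1 FPKM in ACE 48 h, and 10.3 and 0.72 FPKM in the same edges at 72 h. Cluster-118330.91945 had 1.78 FPKM in PCE 48 h and 24.6 FPKM in ACE 48 h, and 64.5 and 10.2 FPKM at 72 h. Of the clusters with the largest 48 h differences, Cluster-118330.128948 was listed at 0 in PCE 72 h, with 50.7 FPKM in ACE 72 h, and so also changed sides.

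**Figure D5:**
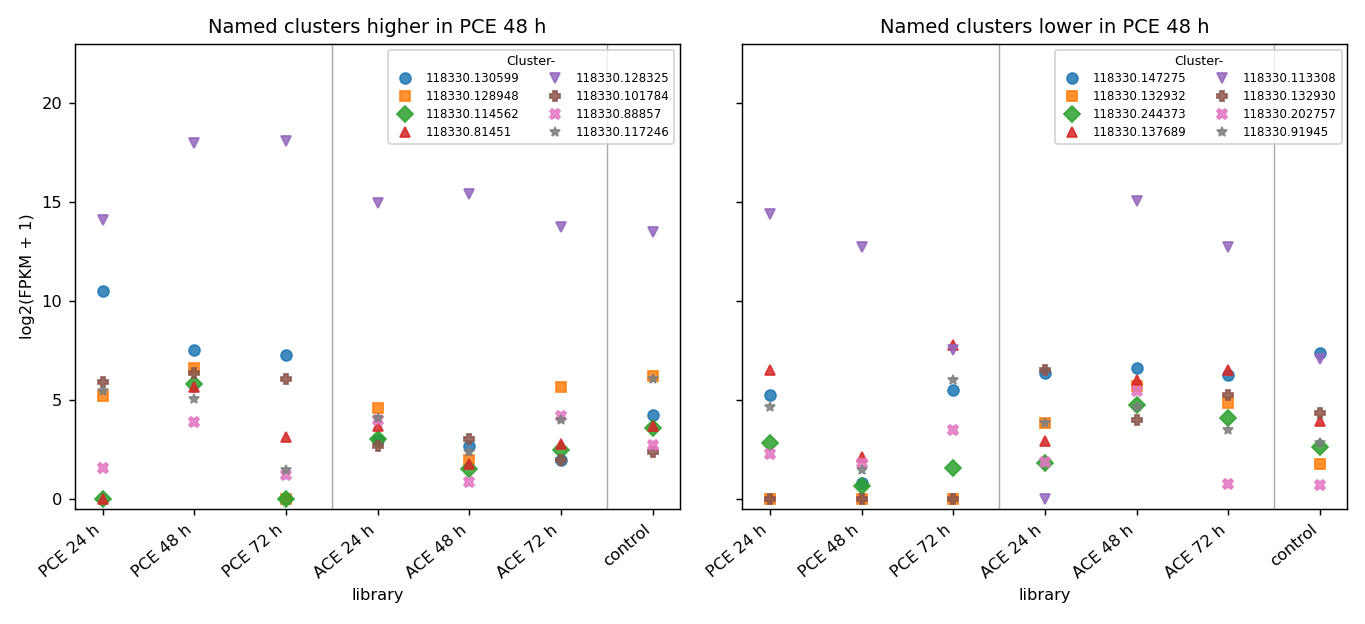
Level of each named cluster as log2(FPKM + 1) in the 7 libraries, with PCE at 24, 48 and 72 h on the left, ACE at the same times in the middle and the control on the right, for PCE-higher (left panel) and ACE-higher (right panel) clusters. Cluster-118330.128325 is at 259639.8 FPKM in PCE 48 h and at 280779.3 FPKM in PCE 72 h. Cluster-118330.132932 and Cluster-118330.132930 lie near 0 in every PCE library.

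Many differences at 48 h came from a level that was extreme over the whole series. PCE 48 h was the highest of all 7 libraries in 812 PCE-higher clusters (49.1%), and ACE 48 h was the lowest in 205 (12.4%). In ACE-higher clusters, ACE 48 h was the highest library in 929 (32.8%) and PCE 48 h the lowest in 669 (23.6%). Selection on the 48 h difference favours such clusters, and the shares over all clusters tested were 15.4% with PCE 48 h highest, 6.55% with PCE 48 h lowest, 18.2% with ACE 48 h highest and 2.65% with ACE 48 h lowest. The rule also required the 48 h libraries to be above 0, but not those of 24 and 72 h. A 48 h library could thus be the lowest only where no library was listed at 0. Among PCE-higher clusters, PCE 24 h was listed at 0 in 35.6% and PCE 72 h in 24.4%, which also bears on the medians that follow. The median level of the PCE-higher clusters was 4.65, 18.7 and 6.42 FPKM in the PCE libraries of 24, 48 and 72 h, against 7.02, 5.48 and 7.39 FPKM in ACE and 7.34 FPKM in the control. The median level of the ACE-higher clusters was 5.61, 4.09 and 3.53 FPKM in PCE, against 8.95, 14.4 and 11.2 FPKM in ACE and 11.6 FPKM in the control.

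The identifiers were the only other property of the members. Each consists of a first and a second number, whose meaning the sources used here do not give. The first number 118330 was carried by 4379 members (97.7%) and by 98.3% of all clusters tested. Among the remaining 104 members, 3 first numbers had 2 members each, and in all 3 the members had the same direction. One of these held Cluster-150017.4 and Cluster-150017.7, which had 40.1 and 41.3 FPKM in PCE 48 h, against 10.2 and 6.10 FPKM in ACE 48 h, and 1.24 and 3.37 FPKM in the control. They were singled out after their values were seen. Both were also higher in PCE 72 h, with 40.2 and 110.3 FPKM, against 6.23 and 5.13 FPKM in ACE 72 h.

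Within the first number 118330, members with neighbouring second numbers tended to share a direction. Of 235 pairs with second numbers 1 apart, 163 (69.4%) had the same direction, as did 60.3% of 751 pairs 2 to 5 apart and 55.9% of 6694 pairs 6 to 50 apart, against 53.7% of all pairs. Near-identical RNAs could be split between clusters, so members need not be independent of each other and their number is not a number of genes.

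The condition that a cluster be above 0 in all 3 libraries left out the clusters seen at only some of them. With the same mean of at least 5 FPKM, 11324 such clusters had a 0 in at least 1 library. Among those present in the control, 544 were above 0 in PCE 48 h and listed at 0 in ACE 48 h, and 1900 were above 0 in ACE 48 h and listed at 0 in PCE 48 h. A further 4441 were above 0 in PCE 48 h alone, with a median of 30.0 FPKM, and 927 in ACE 48 h alone, with a median of 22.3 FPKM. Clusters above 0 in both edges and listed at 0 in the control numbered 2287, with medians of 16.8 FPKM in PCE 48 h and 12.1 FPKM in ACE 48 h. With these clusters counted, 7400 were higher and 5847 lower in PCE 48 h, so the balance between the directions also depends on how 0 is treated.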

How the data were processed

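RNA of zebrafish tail fin was extracted with Trizol and sequenced on Illumina from NEBNext Ultra libraries, per the labels' protocols. The deposited table held FPKM values computed by the authors, with 1 column for each of 7 libraries, named as the samples. HISAT2 2.0.5, HTSeq 0.9.1 and edgeR are named in the submitters' processing notes, with no role or order. The sources used here do not give the genome build, the annotation or how the clusters were made. Of 433380 identifiers, 0 were found in the zebrafish reference tables, so no gene list could be applied.

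The members and the rules for naming clusters were chosen with earlier results of these data known. Differences were taken on log2(FPKM + 1) and called at a size of 1 or more, after a minimum mean of 5 FPKM. Named clusters were those with the largest 48 h difference, the largest departures on opposite sides, the highest level, the largest difference of 1 sign at 3 times, and the largest difference of opposite sign at 72 h, at most 2 for each direction. Relative depth was the median ratio of values from 0.15 to 0.5 FPKM in clusters above 0 in at most 4 libraries. The height of a step peak was its excess over the local mean count of log2 ratios in bins of 0.02, divided by the square root of that mean plus 1. Counts of reads are not in the table, so no interval of counting error is given for a level. The calling step was run on simulated data with large changes set in PCE 48 h alone and little noise. That run checks the code and says nothing on the error of the calls in these data. Values were computed in Python 3.11.15 with pandas 2.3.3, numpy 2.4.6 and scipy 1.17.1, and plotted with matplotlib 3.10.9. Alternatives for the pseudocount, the minimum mean, values of 0, scaling and the threshold were tried. For scaled values, the clusters tested were those of the deposited scale.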

Additional observations from a re-analysis of the deposited data

Results flagged for a closer look

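Named clusters are given here whose edge difference at 24 or 72 h was at least 1 on the log2 scale and opposite to that at 48 h. With 1 library a side, the difference between times was not tested, and several of them were named for this change of side.

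Of the PCE-higher clusters, Cluster-118330.88857 had a PCE minus ACE difference of -2.41 at 24 h and -2.99 at 72 h, against 3.04 at 48 h. Cluster-118330.117246 had -2.52 at 72 h, against 2.66 at 48 h. Cluster-118330.128948 was listed at 0 in PCE 72 h and stood at 50.69 FPKM in ACE 72 h. Cluster-118330.114562 was listed at 0 in PCE at 24 and 72 h with 7.35 and 4.65 FPKM in the ACE libraries of these times. Cluster-118330.81451 was listed at 0 in PCE 24 h and stood at 12.25 FPKM in ACE 24 h.

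Of the ACE-higher clusters, Cluster-118330.137689 had a difference of 3.59 at 24 h and 1.27 at 72 h, against -3.88 at 48 h. Cluster-118330.202757 had 2.72 at 72 h, against -3.60 at 48 h. Cluster-118330.91945 had 2.55 at 72 h, against -3.20 at 48 h. Cluster-118330.113308 had 22091.21 FPKM in PCE 24 h, while ACE 24 h was listed at 0.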

How the results depend on the processing

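No paired analysis was possible because each edge and time had 1 library. For the same reason no library was left out in turn. The 16 named clusters kept the sign of their 48 h difference, at the threshold of each setting, wherever a setting tested them. They were chosen by these values, and the threshold, the minimum mean and values of 0 do not change a difference, so this adds no support. Cluster-118330.128325 went from 2.56 to 1.23 after quantile normalization, and Cluster-118330.132932 from -5.67 to -8.63 with a pseudocount of 0.1. Below, counts are PCE-higher and ACE-higher clusters, followed by the share of members on opposite sides of the control and the share with PCE 48 h farther. A 1.5-fold threshold gave 3255 and 5250 clusters, 25.7% and 60.3%. A 4-fold threshold gave 334 and 677, of which 33.0% were PCE-higher, with 47.2% and 65.4%. A minimum mean of 1 FPKM gave 4123 and 5961 (40.9% PCE-higher), 38.2% and 60.7%. A minimum of 10 FPKM gave 938 and 1445 (39.4%), 28.6% and 64.7%, and no minimum gave 4602 and 6407 (41.8%), 39.0% and 60.2%. With clusters above 0 in at least 1 of the 3 libraries there were 7400 and 5847 (55.9%), 17.7% and 74.3%. These 2 shares are in part fixed by the values of 0. In the 4441 clusters above 0 in PCE 48 h alone, ACE 48 h equals the control. They therefore count on no side, and PCE 48 h is farther by construction. For the 927 above 0 in ACE 48 h alone, ACE 48 h is. Scaling to equal totals gave 730 and 4071 (15.2%), 35.9% and 61.1%. Scaling by the median of ratios led to 48.8% PCE-higher, 29.2% and 64.9%, and quantile normalization 50.5% PCE-higher and 59.9% with PCE farther. Centring on the median of all clusters tested, chosen after seeing the data, gave 47.8% PCE-higher and 28.8% on opposite sides, and a pseudocount of 0.1 gave 29.7% on opposite sides. PCE 48 h was the farther edge in most members under each of these settings.

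For the members at other times, median-of-ratios scaling of 7 libraries raised the ACE-higher clusters that were PCE-higher at 72 h to 301. Centring gave 367 for that count, 1127 ACE-higher clusters of the same direction at 72 h, and 261 PCE-higher and 375 ACE-higher clusters of the same direction at both times. With 72 h alone these last counts were 467 and 1755. Restricting members to those above 0 in all 7 libraries, which leaves fewer clusters, gave 164 PCE-higher clusters of opposite direction at 72 h and 171 at 24 h. For ACE-higher clusters it gave 1010 of the same and 98 of the opposite direction at 72 h, 471 and 257 at 24 h, and 285 of the same direction at both. Beyond the scaling itself, the clusters entering and the threshold, the cause of these changes was not tested.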
